A study of Drosophila melanogaster with 8 samples.

Results

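The salivary glue genes studied here were Sgs3, Sgs4, Sgs5, Sgs7, Sgs8, ng1, ng2 and ng3. Each was found by its symbol as the single gene symbol of a probe set, which gave 8 probe sets for 8 genes, of 11982 genes with a single-symbol probe set on the array. Their signals were followed across 4 genotypes of Drosophila melanogaster eye-antennal discs, paired sacs of epithelium in the larva from which the eye, the antenna and much of the head develop, taken from larvae of the wandering stage. All groups carried the eyeless driver ey-GAL4. Controls, called lacZ here, had UAS-lacZ and a further UAS-lacZ. Discs called vg had UAS-vg with UAS-lacZ, discs called simj had UAS-simj with UAS-lacZ, and vg_simj discs had UAS-vg with UAS-simj. The gene vg encodes a cofactor that selects wing identity, and simj a protein of the chromatin-remodelling complex NuRD. UAS-lacZ was present in 2 copies in lacZ discs, in 1 copy in vg or simj discs and in 0 copies in vg_simj discs, so copy number and genotype cannot be told apart. Each genotype had 2 biological replicates of 100 pooled pairs of discs, with 1 array each, and the labels do not say whether these came from separate crosses.

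Larval salivary glands of Drosophila make a glue of secreted glycoproteins that fixes the pupal case to its support. The glue genes are switched on in the glands by ecdysone, the moulting hormone, during the third larval instar, and are shut off by the late larval hormone pulse. They are textbook salivary gland genes rather than disc genes. Sgs3 and Sgs4 encode mucin-like proteins with long threonine-rich repeats, Sgs5, Sgs7 and Sgs8 encode small cysteine-rich glue proteins, and the "new glue" genes ng1, ng2 and ng3 are a small family beside Sgs4. In the Release 6 gene table of RefSeq, Sgs3, Sgs7 and Sgs8 lie together on chromosome 3L, ng1, ng2, ng3 and Sgs4 lie together on X, and Sgs5 lies on 3R. The array files name no genome build, so no coordinates are given.

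In lacZ discs the glue genes were dim. The median signal of an array lay between 36.5 and 46.3 MAS5 units, the linear signal scale of these arrays, and 1 of 8 glue genes exceeded it on each lacZ array, Sgs4 on both. With a transgene, 7 and 5 of 8 exceeded it on the vg arrays (replicates 1 and 2), 8 and 3 on the simj arrays and 8 and 5 on the vg_simj arrays. Arrays of a single genotype differed by up to 7.38 on the log2(signal + 2.8) scale. The ng genes of X and the genes of 3L were both high on replicate 1 of vg, simj and vg_simj. On replicate 2, the 3L genes were high in vg only, and the ng genes in simj and vg_simj only. No glue gene passed the test in any comparison. Genes of the labelled tissue had signal: all 11 eye-antennal disc genes of a marker list exceeded the median on every array, except 1 of them on vg_simj replicate 1. All 8 ring gland genes and all 3 muscle genes of other lists also exceeded it on every array, so this does not single out disc tissue. The vg probe sets were higher on every vg and vg_simj array than on any other array, and simj was higher on every simj and vg_simj array than on any other.

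**Figure D1:**
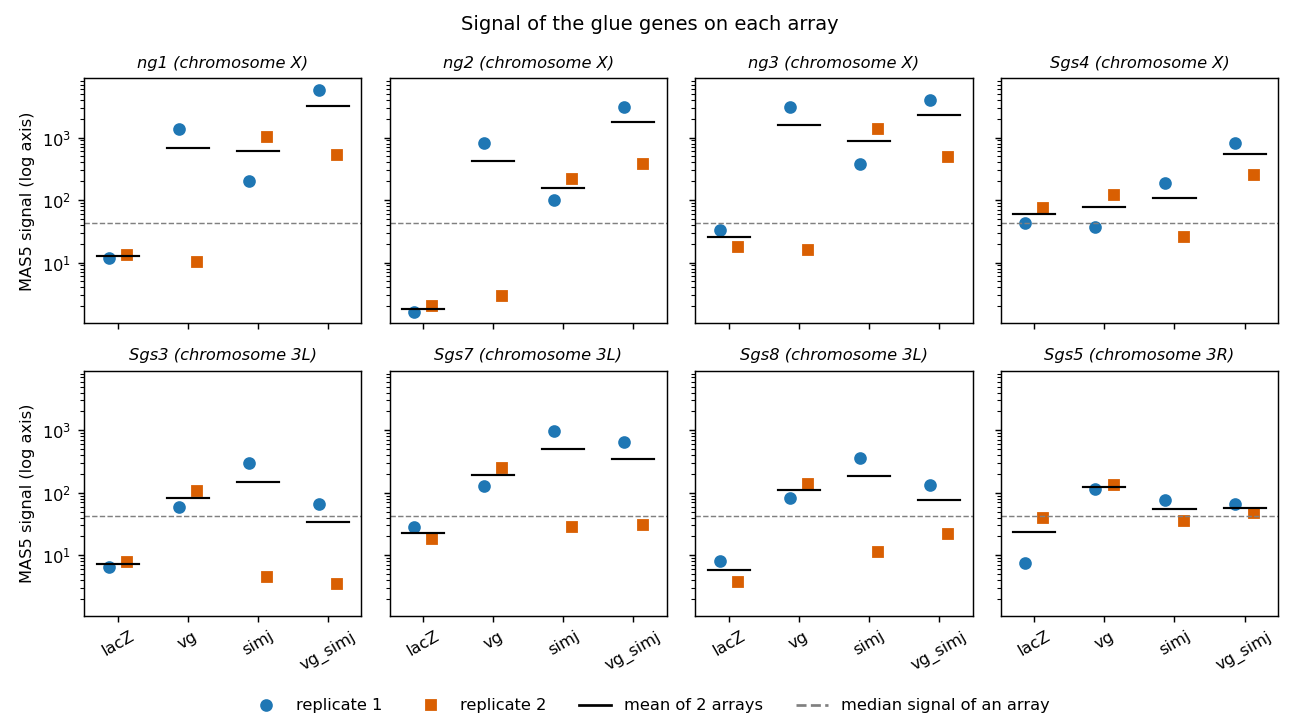
Signal of each glue gene (log axis, MAS5 units) on the 2 arrays of each genotype, circles for replicate 1 and squares for replicate 2; black lines are means of 2 arrays and the dashed line is the middle of the array medians. The lacZ arrays lie low for the ng genes and for Sgs3, Sgs7 and Sgs8, and vg replicate 2 lies with them for the ng genes only.

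The ng genes on X had the widest range. For ng1 (Dmel_CG10781) the signals were 11.7 and 13.4 in lacZ, 1368 and 10.3 in vg, 202 and 1002 in simj and 5858 and 529 in vg_simj, replicate 1 before replicate 2. For ng2 (Dmel_CG14266) they were 1.6 and 2.0 in lacZ, 825 and 2.9 in vg, 99.8 and 216 in simj and 3134 and 379 in vg_simj. For ng3 (Dmel_CG10788) they were 32.9 and 17.9 in lacZ, 3109 and 15.9 in vg, 372 and 1391 in simj and 4015 and 494 in vg_simj. All of these genes were thus at their highest on vg_simj replicate 1, next on vg replicate 1, and high on both simj arrays and vg_simj replicate 2, whereas vg replicate 2 lay among or beside the lacZ arrays. The lacZ and simj arrays did not overlap for any of the ng genes, nor did the lacZ and vg_simj arrays. The platform also has a probe set annotated to both ng1 and ng2, near-identical relatives, so the split of signal between them is uncertain.

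Sgs4 (Dmel_CG12181), the mucin-like neighbour of the ng genes, followed another course. Its signals were 43.7 and 74.1 in lacZ, 37.0 and 119 in vg, 187 and 25.9 in simj and 826 and 251 in vg_simj. Both vg_simj arrays lay above all other arrays, and the lacZ, vg and simj arrays overlapped. The lacZ mean was 58.9 ± 21.5 (SD, n = 2), the vg mean 77.8 ± 57.7, the simj mean 107 ± 114 and the vg_simj mean 538 ± 407. The first 3 of these means did not differ beyond the spread of their arrays.

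On 3L, Sgs3 (Dmel_CG11720), a mucin-like glue gene, had signals of 6.5 and 7.7 in lacZ, 59.1 and 105 in vg, 295 and 4.4 in simj and 65.6 and 3.4 in vg_simj. Sgs7 (Dmel_CG18087), a small cysteine-rich glue gene, had signals of 27.8 and 18.0 in lacZ, 128 and 252 in vg, 986 and 28.5 in simj and 650 and 30.8 in vg_simj. Sgs8 (Dmel_CG6132), the close relative of Sgs7, had signals of 8.0 and 3.7 in lacZ, 81.5 and 136 in vg, 364 and 11.1 in simj and 134 and 21.8 in vg_simj. The same 4 arrays were the highest for all of these genes: both vg arrays, simj replicate 1 and vg_simj replicate 1. The vg and lacZ arrays did not overlap, while simj replicate 2 and vg_simj replicate 2 stood near the lacZ arrays.

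Sgs5 (Dmel_CG7596) on 3R, also a small glue protein gene, had signals of 7.5 and 40.1 in lacZ, 115 and 131 in vg, 76.1 and 34.9 in simj and 65.5 and 48.1 in vg_simj. The lacZ mean was 23.8 ± 23.1 (SD, n = 2), the vg mean 123 ± 11.5, the simj mean 55.5 ± 29.1 and the vg_simj mean 56.8 ± 12.3. Both vg arrays were above all others, and the simj and vg_simj arrays overlapped. Within lacZ its arrays differed more, on the log2 scale, than those of any other glue gene, and in each of the other genotypes less.

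The spread between the 2 arrays of a genotype was large for every glue gene. On the log2(signal + 2.8) scale, the within-genotype SD pooled over genotypes was 2.79 for ng1, 2.78 for ng2, 2.91 for ng3, 2.28 for Sgs3, 2.36 for Sgs7 and 1.92 for Sgs8, against a median of 0.21 over the 10205 probe sets tested. These 6 SDs exceeded those of 99.5% to 99.9% of all probe sets. The SD of Sgs4 was 1.30, above 98.1% of probe sets, and that of Sgs5 was 0.84, above 93.3%, or above 81.5% of them with a pseudocount of 64.

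The direction of the difference between replicates depended on the genotype and on the cluster. Where one array of a pair was below its array's median, as for the ng genes on vg replicate 2 and for Sgs3, Sgs7 and Sgs8 on simj replicate 2, the size of the difference depends on the pseudocount. In vg discs the log2 difference of replicate 1 over replicate 2 was 6.71 for ng1, 7.18 for ng2 and 7.38 for ng3, while Sgs3, Sgs4, Sgs7 and Sgs8 were lower on replicate 1 by a log2 difference of -0.72 to -1.61. In simj discs the order was the other way round: the ng genes were lower on replicate 1 by -1.09 to -2.29, and Sgs3, Sgs7 and Sgs8 were higher there by 5.37, 4.98 and 4.72. Sgs4 went with the 3L genes in these genotypes, by 2.73 on the log2 scale in simj, although it is a neighbour of the ng genes. In vg_simj discs all 8 glue genes were higher on replicate 1, by log2 differences from 0.42 for Sgs5 to 4.28 for Sgs7. In lacZ discs, where signals were low, the log2 differences lay between -2.06 for Sgs5 and 0.79 for ng3.

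**Figure D2:**
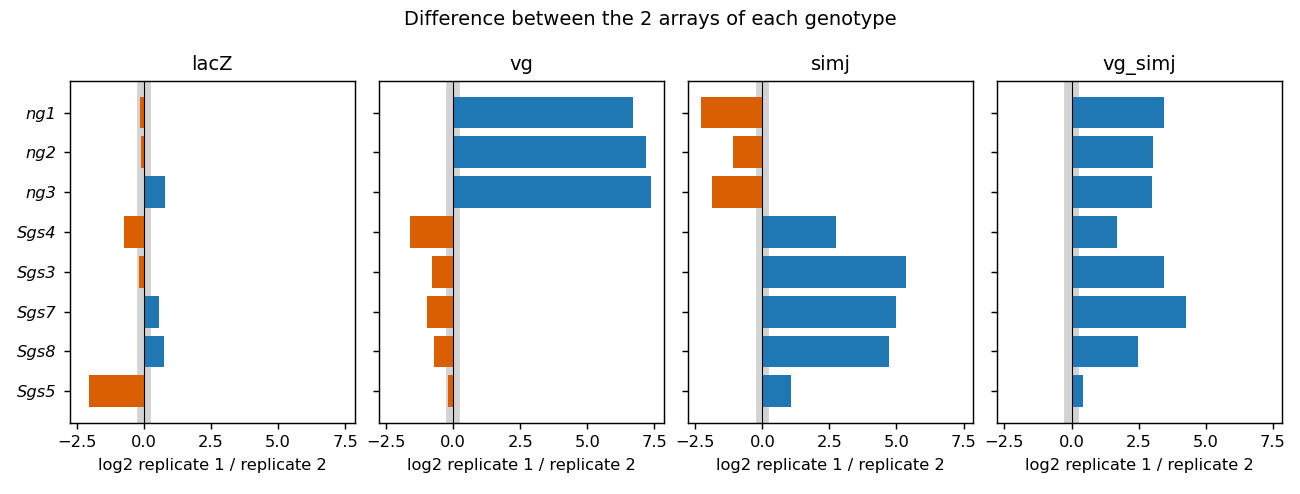
Log2 difference of replicate 1 over replicate 2 for each glue gene (rows) in each genotype (panels); the grey band is the median size of this difference over all probe sets tested. The ng genes and the genes of 3L point in opposite directions in vg and in simj and in the same direction in vg_simj.

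The comparison of vg with lacZ asked what vg alone did to these genes. Values were compared on the log2(signal + 2.8) scale, which understates the fold of dim genes, with limma fitted over all 8 arrays and 10205 probe sets and p-values adjusted by the Benjamini-Hochberg method. Sgs5 had a log2 change of 2.57 ± 0.69 (SE; limma, adjusted p = 0.210), Sgs8 3.69 ± 1.42 (adjusted p = 0.431), Sgs3 3.05 ± 1.70 (adjusted p = 0.624) and Sgs7 2.86 ± 1.70 (adjusted p = 0.653). The ng genes had larger standard errors, with 3.13 ± 2.00 for ng1, 3.90 ± 2.01 for ng2 and 3.15 ± 2.08 for ng3 (adjusted p = 0.585 to 0.697). Sgs4 was at 0.22 ± 0.95 (adjusted p = 0.974). At an adjusted p under 0.05, 0 of 8 glue genes were called, against 0.774% of all probe sets, and 2 of 8 had an unadjusted p under 0.05, against 10.1%.

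Both vg arrays exceeded both lacZ arrays for 5 of 8 glue genes, against 20% of all probe sets, and none was lower on both, against 19.4%. The genes were Sgs3, Sgs5, Sgs7, Sgs8 and ng2. For ng2 the lower vg array, at 2.9, lay just above the higher lacZ array, at 2.0, both far below the array median. The median log2 change was 3.09 for the glue genes, 1.84 without vg replicate 1, and 0.00 for all probe sets. Of the 8 genes, 7 passed the filter on low signals only through arrays with a transgene. These counts and medians, here and in the comparisons below, are therefore descriptions. The values of the ng genes rested on vg replicate 1: without it, the change was -0.23 for ng1 and -0.54 for ng3 and stood at 0.31 for ng2. Without vg replicate 2, ng2 was called at 7.49 (limma, adjusted p = 0.0415), against 0.47% of all probe sets, within a range of adjusted p from 0.0415 to 0.990 over its alternatives.

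The comparison of simj with lacZ asked the same for simj. The ng genes had log2 changes of 4.89 ± 2.00 (ng1), 5.03 ± 2.01 (ng2) and 4.73 ± 2.08 (ng3), with a limma adjusted p of 0.573, 0.556 and 0.622. Sgs8 was at 3.09 ± 1.42, Sgs7 at 2.80 ± 1.70, Sgs3 at 2.23 ± 1.70, Sgs5 at 1.38 ± 0.69 and Sgs4 at 0.30 ± 0.95 (adjusted p = 0.635 to 0.971). Of 8 glue genes 0 were called, against 0.412% of all probe sets, and 2 had an unadjusted p under 0.05, against 8.17%. Both simj arrays exceeded both lacZ arrays for 5 of 8 glue genes, against 16% of all probe sets, and 0 were lower on both, against 24.1%. Those genes were ng1, ng2, ng3, Sgs7 and Sgs8, and for Sgs7 the lower simj array, at 28.5, lay just above the higher lacZ array, at 27.8. The median log2 change of the glue genes was 2.95, and 0.79 without simj replicate 1, without which Sgs3 stood at -0.46 and Sgs4 at -1.06.

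The comparison of vg_simj with lacZ concerned discs with both transgenes. Here ng2 had a log2 change of 7.89 ± 2.01 (limma, adjusted p = 0.0878), ng1 6.85 ± 2.00 (adjusted p = 0.139) and ng3 5.70 ± 2.08 (adjusted p = 0.235). Sgs4 was at 2.94 ± 0.95 (adjusted p = 0.180), Sgs8 at 2.79 ± 1.42, Sgs7 at 2.55 ± 1.70, Sgs5 at 1.49 ± 0.69 and Sgs3 at 1.06 ± 1.70 (adjusted p = 0.364 to 0.843). Of 8 glue genes 0 were called, against 3.33% of all probe sets, and 4 had an unadjusted p under 0.05, against 15.4%. Both vg_simj arrays exceeded both lacZ arrays for 7 of 8 glue genes, against 21.4% of all probe sets, the exception being Sgs3, and 0 were lower on both, against 20.9%. The margin was thin for Sgs7, at 30.8 against 27.8 on the higher lacZ array, and for Sgs5, at 48.1 against 40.1. The median log2 change was 2.86, moving to 1.82 without vg_simj replicate 1 and to 4.36 without vg_simj replicate 2. Since ng2 stood at 1.8 ± 0.283 (SD, n = 2) in lacZ, its change depended on the pseudocount. With a pseudocount of 64 it was 4.18, below the 4.61 of ng1.

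The count of calls in vg_simj against lacZ depended on which arrays estimated the spread. With only the lacZ and vg_simj arrays in the fit, 4 of 8 were called: ng1, ng2, ng3 and Sgs4 (limma, adjusted p = 0.0106, 0.00464, 0.0152 and 0.0345), against 2.98% of all probe sets. Over their alternatives the adjusted p ranged from 0.0106 to 0.439 for ng1, 0.0041 to 0.350 for ng2, 0.0152 to 0.566 for ng3 and 0.0345 to 0.515 for Sgs4. Without vg replicate 1, or without vg replicate 2, 3 of 8 were called, ng1, ng2 and ng3, against 3.3% and 3.17% of all probe sets.

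**Figure D3:**
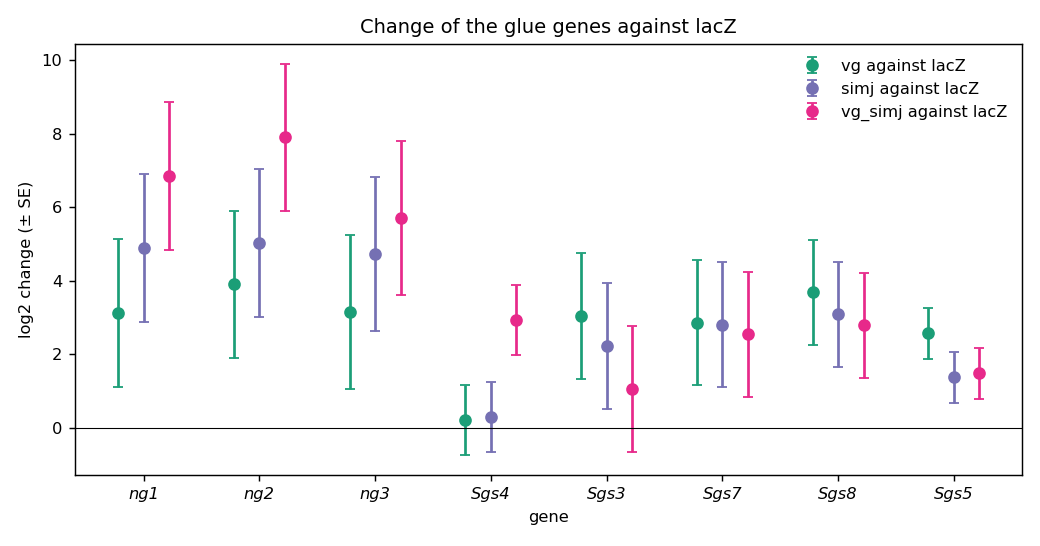
Log2 change of each glue gene against lacZ (points, with the standard error from limma as bars) in the vg, simj and vg_simj discs. The points lie above 0 with wide bars, and the ng genes and Sgs4 have their highest points in vg_simj.

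Discs with both transgenes were also set against each transgene alone. Sgs4 had a log2 change of 2.72 ± 0.95 in vg_simj against vg (limma, adjusted p = 0.365) and 2.63 ± 0.95 against simj (adjusted p = 0.224), with no overlap of arrays in either. It was the only glue gene higher on both arrays than on both vg arrays, against 18.9% of all probe sets. Against simj, Sgs4 and ng2 were the 2 of 8 with no overlap, against 27.2%, and 0 were lower on both arrays, against 22.2%. Sgs5 was lower on both vg_simj arrays than on both vg arrays (-1.09 ± 0.69, adjusted p = 0.701), 1 of 8, against 17.6%. The other glue genes lay between -1.99 and 3.99 against vg and between -1.17 and 2.87 against simj, with overlapping arrays except for ng2 against simj. No glue gene was called, against 0.921% and 1.3% of all probe sets, and 1 of 8 had an unadjusted p under 0.05 in each, against 9.58% and 17.1%. Without vg replicate 1, ng2 was called in vg_simj against vg at 7.58, against 0.774% of all probe sets (limma, adjusted p = 0.0325, the lowest over its alternatives, which reached 0.999).

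Whether the vg effect differed with and without simj was tested as an interaction, the vg effect with simj minus that without it. Sgs5 was at -2.46 ± 0.97, with an unadjusted p of 0.0355 in limma and an adjusted p of 0.995. The median over the 8 genes was -2.32, against 0.03 over all probe sets, and 7 of 8 values were negative, the exception being Sgs4 at 2.42 ± 1.35. None was called, against 0.049% of all probe sets, and 1 had an unadjusted p under 0.05, against 3.96%. The median moved to -0.52 without vg replicate 1, to -3.72 without vg replicate 2 and to -0.82 without vg_simj replicate 2.

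The genes next to the glue genes were described in the Release 6 order of protein-coding genes, and those named here were chosen after their values were seen. Pig1, the divergently transcribed neighbour of Sgs4, had signals of 20.8 and 4.4 in lacZ, 299 and 11.6 in vg, 160 and 483 in simj and 1992 and 168 in vg_simj. Its 5 highest arrays were those of the ng genes, with simj replicate 2 above simj replicate 1 and vg replicate 2 among the lacZ arrays. CG14265, next to ng2, had signals of 21.6 and 31.9 in lacZ, 688 and 42.1 in vg, 254 and 89.5 in simj and 1502 and 485 in vg_simj. It shared the high vg_simj arrays and vg replicate 1, but its simj arrays had the order of the 3L genes. Neither passed the test, with a log2 change in vg_simj of 5.48 for Pig1 (limma, adjusted p = 0.128) and 4.88 for CG14265 (adjusted p = 0.0708).

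Not all genes of these loci were high on these arrays. The phosphodiesterase gene dnc, on the other side of CG14265, lay between 397 and 657 on all arrays, and ng4 stayed at 28.1 or lower. Within the 3L cluster, CG33272, which lies between Sgs7 and Sgs3, had signals between 58.7 and 121 and log2 changes of -0.17 to -0.36 against lacZ. Beside Sgs5, Sgs5bis had signals of 228 and 2.7 in simj and 129 and 18.7 in vg_simj, against 12.4 and 5.2 in lacZ. CG7606, on the other side of Sgs5, had 516 and 48.1 in simj and 198 and 59.2 in vg_simj, against 50.3 and 68.2 in lacZ. Both were highest on the simj and vg_simj replicates on which Sgs3, Sgs7 and Sgs8 were also high, and on vg replicate 2 they stood at 11.3 and 81.7.

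**Figure D4:**
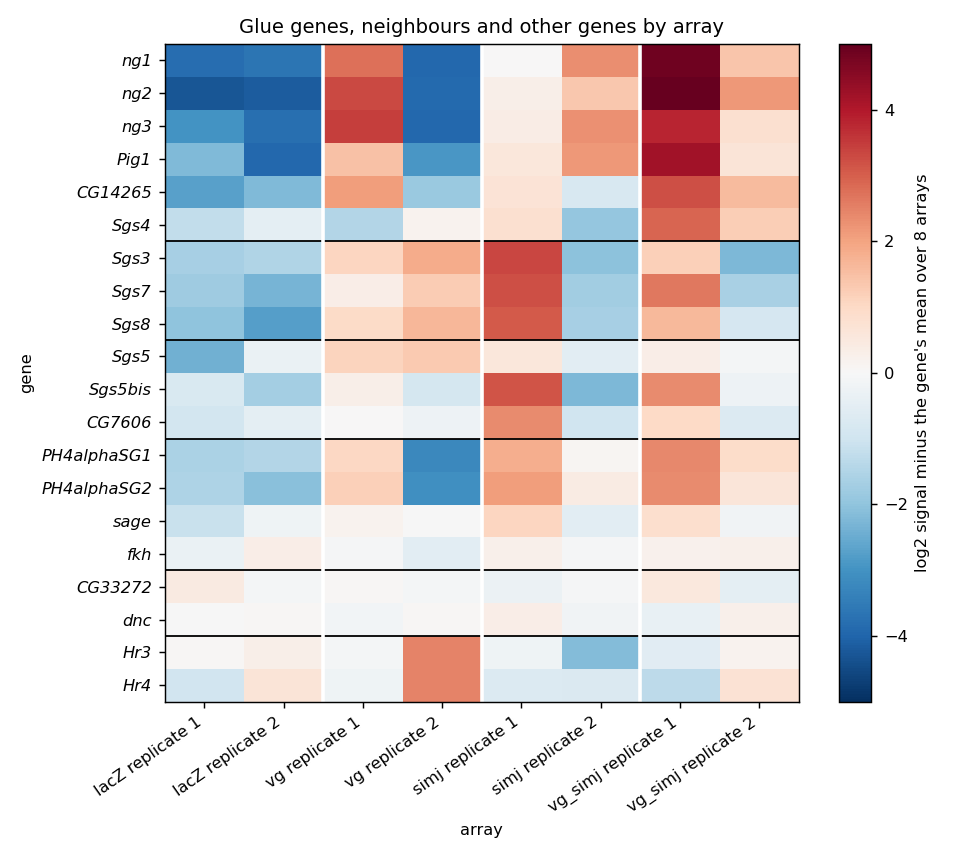
Log2(signal + 2.8) minus the gene's mean over 8 arrays (colour) for glue genes, neighbouring genes and other genes (rows) on each array (columns). The ng genes and Pig1 share their 5 highest arrays, Sgs3, Sgs7 and Sgs8 share their 4 highest, and dnc and CG33272 stay near their means.

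Genes of salivary glands other than glue genes were read from lists. Of 15 other glue and salivary secreted genes, 13 had a probe set and 3 passed the filter (Pig1, Eig71Ee and Sgs5bis), none of them called in any comparison. Their median log2 change was 0.94 in vg, 1.69 in simj and 2.27 in vg_simj against lacZ. Sgs1, a further mucin-like glue gene, had 42.9 on vg replicate 2, above that array's median of 36.55, and 8.8 or less elsewhere. Of 10 gland regulators and enzymes, 8 had a probe set and 7 passed the filter, with 0 called and medians of 0.30, 0.16 and 0.30. In this list fkh, the forkhead factor that specifies the gland, lay between 139 and 251 on all arrays, and pip, a sulfotransferase gene, between 310 and 584. The gene sage of this list, chosen after its values were seen, had 66.2 and 125 in lacZ and 165 and 143 in vg. In simj it had 310 and 101, and in vg_simj 263 and 129.

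The gland prolyl hydroxylase genes of that list, chosen after their values were seen, also varied. PH4alphaSG2 had signals of 27.1 and 17.9 in lacZ, 195 and 7.6 in vg, 370 and 113 in simj and 448 and 130 in vg_simj. PH4alphaSG1 had 14.8 and 16.7 in lacZ, 106 and 2.9 in vg, 186 and 54.9 in simj and 276 and 98.1 in vg_simj. Both exceeded the lacZ arrays on vg replicate 1 and on every simj and vg_simj array, as the ng genes did. Within simj, though, both were higher on replicate 1, where the ng genes were lower. Both were lowest on vg replicate 2, where ng1 and ng3 were also lowest and where Sgs3 and Sgs8 had their second-highest signals. A further pip probe set ran from 11.1 and 16.9 in lacZ to 150 and 27.0 in vg_simj. The part of gland RNA in the values of the glue genes was not tested, and in these bulk samples fewer cells of a type and less RNA per cell cannot be told apart.

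Regulators of the hormone response were also listed, since ecdysone sets the time at which glue genes are on. Of 11 such genes, 9 were tested and 0 called, with median log2 changes of 0.18 in vg, -0.23 in simj and -0.08 in vg_simj. The broad gene br, needed for glue gene expression, lay between 7004 on simj replicate 2 and 11230 on simj replicate 1 by its brightest probe set. Its other 4 probe sets were all highest on vg replicate 2, at 1978, 879, 124 and 2702, against at most 1826, 679, 93.6 and 2366 elsewhere. The nuclear receptor genes Hr3 and Hr4, induced by the late larval hormone pulse and chosen here after their values were seen, stood apart on vg replicate 2. Hr3 had signals of 106 and 125 in lacZ, 94.8 and 575 in vg, 86.4 and 20.1 in simj and 67.7 and 114 in vg_simj. Hr4 had 74.4 and 235 in lacZ, 127 and 846 in vg, 91.6 and 89.6 in simj and 57.9 and 243 in vg_simj, and its other tested probe set did not stand apart there, at 40.1 against 41.8 or less. The other genes of the list, named after their values were seen, were mixed on vg replicate 2. Hr39, Eip78C and Eip93F were highest there, while EcR and usp were not. By its brighter probe set ftz-f1 was lowest there, at 205, and by its other, at 86.9, it was not. Hr3 was highest on vg replicate 2, where the ng genes were low and Sgs3, Sgs7 and Sgs8 were high. It was lowest on simj replicate 2, where Sgs3, Sgs7 and Sgs8 were low and the ng genes were high. The other arrays did not follow this: in vg_simj, Hr3 was lower on replicate 1, where all of these glue genes were higher. In lacZ, Hr3 stood at 106 and 125 while Sgs3, Sgs7 and Sgs8 were low. The part of larval age in these values was not tested.

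Other lists were read beside these. Of 16 genes for glue granule glycosylation, formation and exocytosis, 9 were tested, 0 were called, and their summed signal lay between 5748 and 7816 on all arrays. Fat body genes (4 tested, 0 called) had a summed signal of 300 to 371 in lacZ, 367 to 1042 in vg, 439 to 527 in simj and 556 to 588 in vg_simj. Their highest sum, on vg replicate 1, was on an array where the ng genes were high. On replicates 1 and 2 of vg_simj, however, the sums were close, at 588 and 556, while ng1 had 5858 and 529. Over all probe sets 0.774% were called in vg, 0.412% in simj and 3.33% in vg_simj against lacZ. Of 8 ring gland genes 6 fell in vg and 7 in vg_simj against lacZ, and 0 were called in simj, with sums of 24407 to 29859 in lacZ and 4235 to 5127 in vg_simj. Of 8 haemocyte genes 2 fell in vg and 1 in vg_simj, and 0 were called in simj. Of 3 muscle genes 0 were called. Of the 11 disc genes 0 were called in vg, 1 fell in simj, and 3 fell and 1 rose in vg_simj. These tissues' part in the glue gene values was not tested.

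The genes most like the glue genes were found by Pearson's r over the 8 arrays with the mean standardised profile of the 8 glue genes, as a description. The closest were Mrm2 (r = 0.983), CG14971 (r = 0.957), bc10 (r = 0.950), pip (r = 0.946, the further probe set above) and Dhpr (r = 0.934), followed by Sirt1, CG31910, CG3088, CG34198 and CG13053 at 0.931 to 0.902. The median r over 8751 probe sets was -0.02 and the 99th percentile 0.790. Most of these varied little: Mrm2, a ribosomal RNA methyltransferase gene, lay between 253 and 438. CG13053 ranged more, with 5.9 and 7.9 in lacZ, 76.8 and 87.3 in vg, 74.8 and 16.0 in simj and 107 and 66.7 in vg_simj. With the profile of ng1, ng2 and ng3 alone, a choice made after the values were seen, RhoGDI (r = 0.974), Pig1 (r = 0.968), Mesh1 (r = 0.964), Lsp2 (r = 0.946) and bora (r = 0.940) came first. Lsp2, a storage protein gene of the fat body, had signals of 105 and 116 in lacZ, 451 and 139 in vg, 182 and 302 in simj and 344 and 287 in vg_simj. With that of Sgs3, Sgs7 and Sgs8, Uqcc1 (r = 0.924), CG3088 (r = 0.889), HLH54F (r = 0.880), CG7606 (r = 0.873) and CG14971 (r = 0.858) did.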

How the data were processed

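Per the labels, 100 ng of total RNA was amplified through repeated rounds of cDNA synthesis, a step that can add spread for rare transcripts. The authors deposited linear intensity values, a MAS5 signal for each probe set, per the labels (MAS5 version not stated). Averaged without its top and bottom 2%, each array came to 500.0, so every array had been scaled by a factor of its own. Without detection calls, dim signals and background look alike here. Of 18952 probe sets 183 controls were left out, and 10205 were kept that exceeded the median signal on 2 or more of the 8 arrays. All 8 glue genes were kept. The platform annotation gave 13647 probe sets 1 symbol, and symbols were updated through the RefSeq gene table.

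Values were taken as log2(signal + 2.8), with the 10th percentile of all signals added. Group means of the 4 genotypes were estimated from 8 arrays by limma 3.58.1, run in R 4.3.3 (eBayes with intensity trend, 4 residual and 3.84 prior degrees of freedom), two-sided, with Benjamini-Hochberg adjustment over all probe sets, calls being an adjusted p under 0.05. The code was tested on simulated data. With 2 arrays against 2, the smallest two-sided p of an exact permutation test is 0.333, so p-values rest on the spread shared across groups, and 2 arrays a group limit the precision. Members, lists and tests were chosen with earlier results of these data known. All glue genes are named; of each list, up to 4 members with the highest mean signal, called ones, and the 10 genes most like the glue genes could be. Other names are said to be chosen after their values were seen. Sequences were not analysed here. Same-numbered replicates were not treated as pairs: the correlation of their differences between genotypes was 0.06 to 0.40 and under 0.1 in places.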

Additional observations from a re-analysis of the deposited data

Results flagged for a closer look

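A probe set that the platform annotation gives to both ng1 and ng2 was left out of the gene values because it has several symbols. It carried a signal above the control arrays: 1.9 and 4.6 in lacZ, 176 and 596 in simj and 3339 and 507 in vg_simj, and 1025 and 1.1 in vg. The mean was 386 ± 297 (SD, n = 2) in simj and 1923 ± 2003 in vg_simj, against 3.25 ± 1.91 in lacZ. Its order of arrays was that of ng1, and it did not pass the test in vg_simj against lacZ (log2 change 7.79 ± 2.21, limma, adjusted p = 0.126).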

How the results depend on the processing

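Of 19 alternatives, all were run, and the stricter filter kept 4 of the 8 glue genes. These were ng1, ng2, ng3 and Sgs7, which exceeded the 75th percentile on 2 or more arrays, none of them lacZ arrays. Their log2 changes stayed the same, so medians with the stricter filter differ only in the genes included. The single-gene changes were called in 13 of 888 alternative values, and 28 changed sign, none of them called. In vg against lacZ the count of calls was 0 to 1 with an array left out and the median log2 change was 1.40 with a pseudocount of 64. In simj against lacZ the median was 1.53 with a pseudocount of 64, 4.81 with the stricter filter and 0.79 to 4.13 with an array left out. In vg_simj against lacZ the count was 1 with the replicate number as a block, 4 with only the groups compared and 0 to 3 with an array left out, and the median was 6.27 with the stricter filter and 1.82 to 4.36 with an array left out. In vg_simj against vg the count was 0 to 1 with an array left out, and the median 3.13 with the stricter filter and -0.18 to 2.71 with an array left out. The median with an array left out was -0.32 to 2.18 in vg_simj against simj and -3.72 to -0.52 for the interaction. The replicate block is no pairing the labels give. It moved the count over all probe sets from 79 to 117 in vg, 42 to 59 in simj, 340 to 413 in vg_simj, 94 to 117 in vg_simj against vg and 133 to 213 in vg_simj against simj, and in the glue genes called ng2 in vg_simj (log2 change 7.89, adjusted p = 0.0462) and no other.

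With only the groups compared, the count over all probe sets was 31 in vg, 6 in simj, 41 in vg_simj against vg and 353 in vg_simj against simj; without the intensity trend it was 44, 5 and 66 in vg, simj and vg_simj against simj, and with 1 probe set per gene 49 and 11 in vg and simj. The stricter filter, with fewer probe sets tested, gave 18, 176, 39 and 73 in simj, vg_simj, vg_simj against vg and vg_simj against simj. With an array left out the count over all probe sets was 26 to 88 in vg, 1 to 34 in simj, 156 to 337 in vg_simj, 21 to 87 in vg_simj against vg, 28 to 174 in vg_simj against simj and 0 to 10 for the interaction.

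Genes whose sign turned are given by their range with an array left out. Against lacZ these were ng1 (-0.23 to 6.48), ng3 (-0.54 to 6.84) and Sgs4 (-0.59 to 1.02) in vg, Sgs3 (-0.46 to 4.91) and Sgs4 (-1.06 to 1.67) in simj, and Sgs3 (-0.67 to 2.79) in vg_simj. In vg_simj against vg they were ng3 (-1.14 to 6.24), Sgs7 (-2.44 to 1.84, and 0.078 with a pseudocount of 64) and Sgs8 (-2.14 to 0.34). In vg_simj against simj they were ng3 (-0.54 to 2.48), Sgs3 (-3.86 to 1.52), Sgs5 (-0.42 to 0.65), Sgs7 (-2.74 to 2.24) and Sgs8 (-2.66 to 2.06). For the interaction they were ng1 (-4.52 to 2.18), ng2 (-4.62 to 2.56, and 0.58 with a pseudocount of 64) and ng3 (-5.87 to 1.51). The cause was not tested beyond the array left out.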

Other observations

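The 71E genes, listed with the other glue and salivary secreted genes, were dim beside the glue genes. Of the 9 with a probe set, 8 stayed below each array's median. Eig71Ee was the exception, with 36.0 and 57.1 in lacZ, 79.8 and 57.2 in vg, 299 and 38.7 in simj and 430 and 64.7 in vg_simj. Its high arrays, simj replicate 1 and vg_simj replicate 1, were also the highest for Sgs7 and Sgs5bis.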
